A study of Danio rerio with 12 samples.

Results

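The genes described are the nuclear genes that encode subunits of the respiratory chain and of the ATP synthase, with the inhibitor of that enzyme. They were chosen by name among the protein-coding genes of the table outside the mitochondrial genome. Names began with NDUFA, NDUFB, NDUFC, NDUFS or NDUFV and a digit, or with SDH, UQCR, CYC1, COX5, COX6C, COX7, COX8 or ATP5. The assembly factors SDHAF and the ATP5S name were left out, and the digit leaves out NDUFAF assembly factors and NDUFAB1. This gave 88 of 35004 genes, of which 36 belong to complex I, 5 to complex II, 9 to complex III, 14 to complex IV and 20 to complex V, with the 4 genes of the NDUFA4 family kept apart. The COX4, COX6A and COX6B genes of complex IV are not among them. RNA came from whole zebrafish larvae at 3 days after fertilization, either wild type (WT) or gcn2 knockout, that spent 8 hours in normoxia or in hypoxia, with 3 libraries in each of the 4 groups. Gcn2 is the kinase encoded by eif2ak4, a sensor of amino acid shortage that acts on the translation factor eIF2. The oxygen level, the knockout allele and the number of larvae in a library are not given in the sources used here.

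Complexes I to IV pass electrons from NADH and succinate to oxygen along the inner mitochondrial membrane, and complexes I, III and IV pump protons as they do so. Complex V uses the proton gradient to make ATP. Most subunits are encoded in the nucleus and imported, a small set is encoded by the mitochondrial genome, and several subunits of complex IV exist as paralogues that are used in different tissues or oxygen conditions. In mammals, low oxygen is known to switch some of these paralogues and to raise NDUFA4L2 through the hypoxia-inducible factor.

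Values are deposited FPKM (read fragments scaled by gene length and library), and group levels are means ± SD with n = 3. A change is given as log2(FPKM + 1) in 1 group mean minus the other, with its standard error and Benjamini-Hochberg adjusted p values from limma, fitted to 21480 genes with at least 1 FPKM in 3 or more of the 12 libraries. A gene rose or fell where hypoxia was above or below normoxia at an adjusted p below 0.05, and higher or lower describes the knockout relative to WT at the same threshold. Libraries held 15668848 to 16841145 reads. The targeted gene eif2ak4 lay at 3.63 to 4.25 FPKM in the WT libraries and at 1.52 to 1.95 FPKM in the knockout libraries. Of the 88 genes, 83 passed the filter. Those that did not were listed near 0 in every library: ndufs1, a core iron-sulfur subunit of complex I, at no more than 0.072 FPKM, ndufb4 at no more than 0.15, uqcrb at no more than 0.59, sdhda at no more than 1.00 and ndufa4l2b at no more than 0.72. The annotated span of ndufs1 overlaps that of ino80db on the same strand over 24813 bases, and 19 of the 88 genes, 16 of them tested, overlap another annotated gene, so their counts are uncertain where reads could be split or shared.

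Hypoxia lowered most of these transcripts in WT larvae, and in hypoxia most were higher in the knockout than in WT. In WT, 54 of 83 fell and 3 rose, with a median log2 change of -0.25 against 0.008 over all tested genes. In whole larvae, fewer cells that express a gene and less RNA per cell cannot be told apart. Over all tested genes 36.0% changed, 16.8% upward and 19.2% downward. In the knockout 17 rose and 7 fell, with a median of 0.05, where 44.0% of all genes changed, 21.8% upward and 22.2% downward, so neither count of members stands above that background. That split depends on the scaling: per total reads 8 rose and 26 fell in the knockout, against 14.1% and 32.4% of all genes, and with TPM 8 rose and 33 fell, against 13% and 33.7%. Between genotypes in normoxia 2 were higher and 2 lower (median -0.04), against 16.7% of all genes, 7.63% higher and 9.11% lower. In hypoxia 62 were higher in the knockout and 0 lower (median 0.26), against 33.1% of all genes, 17.0% higher and 16.2% lower. At an unadjusted p below 0.05 limma gave 73 higher and 0 lower, against 21.7% and 21.5% of all genes, and voom on the recovered reads gave 67 higher and 0 lower after adjustment, against 17.6% and 17.3%. The count was 36 with the compared groups alone, against 13% of all genes. It was 37 without knockout hypoxia replicate 1, a fit for which the share of all genes is not given here. The comparisons in WT and between genotypes in hypoxia share the WT hypoxia libraries and are not independent of each other.

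The libraries show the same split. In WT, every hypoxia library was below every normoxia library for 62 members and above for 3, where 23.8% and 22.4% of all genes did so. In the knockout the counts were 9 and 26, against 28.0% and 27.3%. Between genotypes in normoxia, 15 members were lower and 10 higher without overlap, against 21.8% and 18.8%, and in hypoxia 0 were lower and 62 higher, against 21.3% and 21.4%.

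**Figure D1:**
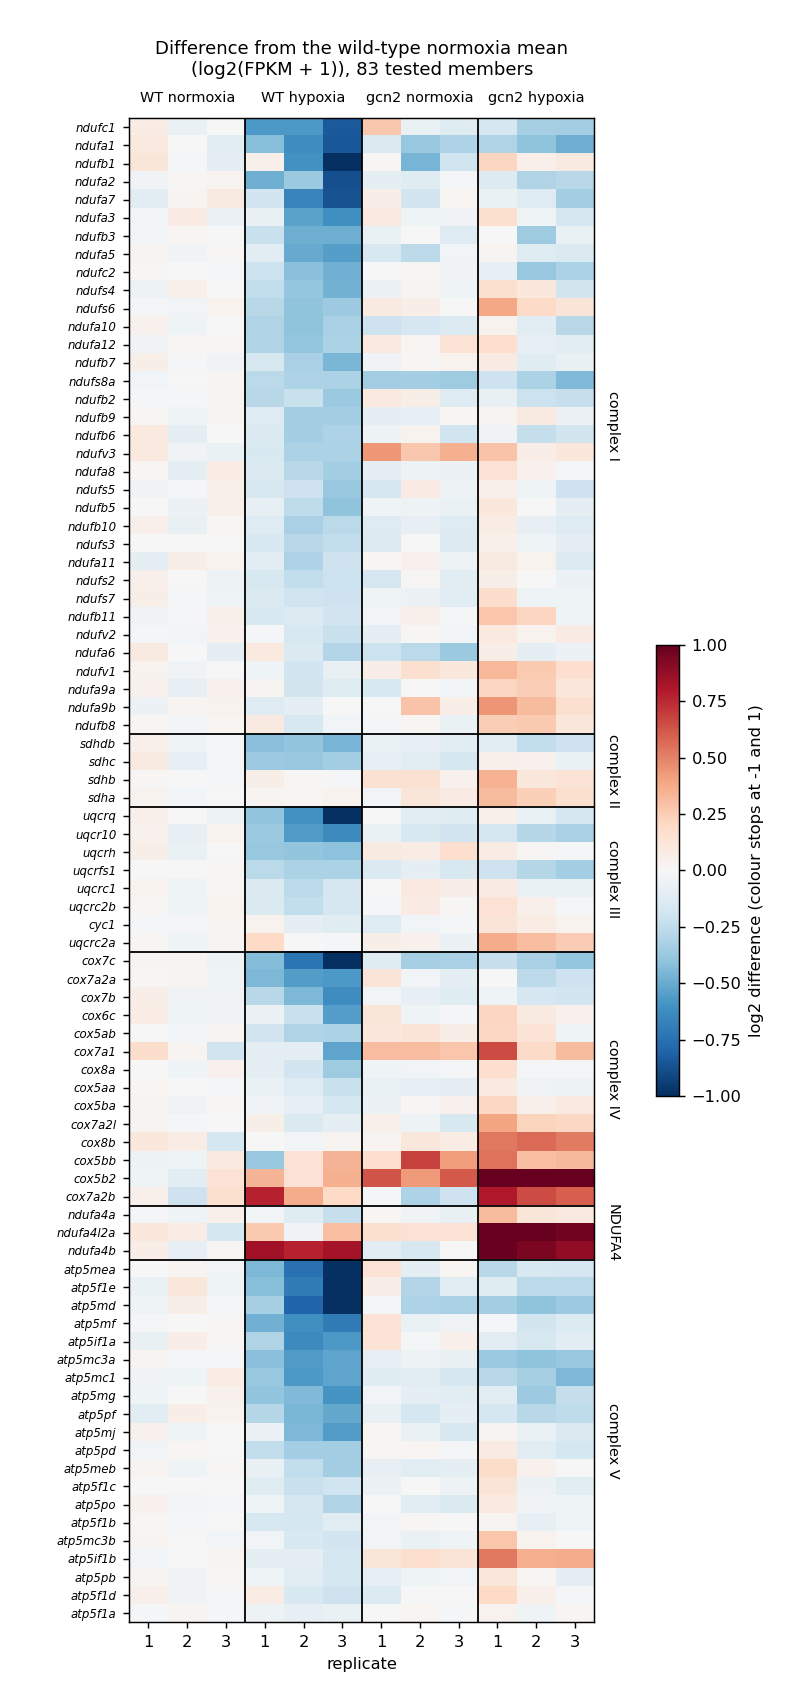
Each row is a tested member and each column a library, with colour for the difference from the WT normoxia mean on the log2(FPKM + 1) scale and colours that stop at -1 and 1. Rows are grouped by complex and ordered by their change in WT hypoxia. Blue dominates the WT hypoxia columns, where 54 members fell, and ndufa4b and cox7a2b are red in the hypoxia columns of both genotypes.

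The hypoxia groups were more spread than the normoxia groups. The median SD of a member on the log2 scale was 0.044 in WT normoxia and 0.056 in knockout normoxia, and 0.103 and 0.093 in WT and knockout hypoxia. Over all tested genes it was 0.091, 0.084, 0.119 and 0.101 in the same order. All genes were thus also more spread in hypoxia, and the members were less spread than all genes in every group. Replicate 1 had the highest summed level of the members in both hypoxia groups, at 11330 FPKM in WT against 10360 and 9950, and at 13290 in the knockout against 12150 and 11960. The summed FPKM of all genes was also highest there, at 512876 against 483458 and 473732 in WT and 530495 against 502139 and 499059 in the knockout. The members took 1.22% of reads in it against 1.18% and 1.18% in WT, and 1.41% against 1.35% and 1.33% in the knockout. Without knockout hypoxia replicate 1, the knockout's hypoxia counts became 10 risen and 12 fallen, with a median of -0.014. The risen count was 11 without knockout normoxia replicate 3, and the fallen count was 4 without knockout normoxia replicate 1 or 2 and 2 and 1 without knockout hypoxia replicate 2 and 3. In WT a single gene rose without normoxia replicate 2 or hypoxia replicate 1. The shares of all genes called in the fits that leave out a library are not given here, so these counts have no background beside them. Per total reads instead of the deposited scaling, the median of all genes moved to -0.106 in knockout hypoxia and that of the members to -0.084. With TPM these medians were -0.123 and -0.107. In WT the counts per total reads were 2 risen and 68 fallen, where 12.5% of all genes rose and 24.2% fell, with medians of -0.046 for all genes and -0.323 for the members.

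Complex I, the NADH dehydrogenase, had 34 tested members. In WT, 26 fell and 0 rose (median -0.27), while in the knockout 5 rose and 4 fell (median 0.06), and in hypoxia 27 were higher in the knockout. Over all tested genes 19.2% fell and 16.8% rose in WT, 21.8% rose and 22.2% fell in the knockout, and in hypoxia 17.0% were higher in the knockout. The risen and fallen counts of complex I in the knockout do not stand above that background. Among the core subunits, which carry the flavin and the iron-sulfur clusters, 4 of 6 fell in WT (median -0.20), and of the accessory NDUFA and NDUFB genes 9 of 12 (median -0.34) and 7 of 10 (median -0.27) fell. Differences between these roles were not tested. The membrane-arm subunit ndufc1 (chromosome 14, GRCz11, 46114659 to 46117345) measured 65.4, 59.3 and 62.1 FPKM in WT normoxia, 41.6, 41.4 and 34.3 in WT hypoxia, 75.3, 59.3 and 57.1 in knockout normoxia and 55.2, 49.1 and 49.0 in knockout hypoxia. It was lower in every hypoxia library than in every normoxia library of the same genotype, with log2 changes of -0.66 ± 0.10 in WT (adjusted p = 0.000285, limma) and -0.31 ± 0.10 in the knockout (adjusted p = 0.026). The knockout call was lost without knockout normoxia replicate 1 (adjusted p = 0.114) or without knockout hypoxia replicate 2 or 3 (0.0787 and 0.078). The related subunit ndufc2 also fell in the knockout (-0.25 ± 0.08, adjusted p = 0.019), a call lost without knockout normoxia replicate 2 or knockout hypoxia replicate 2 or 3 (adjusted p up to 0.085).

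The accessory subunit ndufs6, which sits near the NADH-binding module, is shown for its interaction of genotype and oxygen. It measured 45.2, 44.8 and 46.6 FPKM in WT normoxia and 37.4, 34.2 and 35.1 in WT hypoxia, against 48.5, 47.8 and 45.3 in knockout normoxia and 59.9, 52.0 and 49.8 in knockout hypoxia. In deposited FPKM all WT hypoxia libraries were below, and all knockout hypoxia libraries above, the normoxia libraries of their genotype. It fell in WT (-0.35 ± 0.07, adjusted p = 0.00117) and rose in the knockout (0.19 ± 0.07, adjusted p = 0.0346), a rise that was lost per total reads (0.05, adjusted p = 0.479) and with TPM (0.03, adjusted p = 0.677). The knockout minus WT difference in hypoxia was 0.58 ± 0.07 (adjusted p = 3.91e-05). In the knockout ndufa9a, an accessory subunit at the junction of the arms, rose by 0.25 ± 0.07 (adjusted p = 0.00773), but not per total reads (0.12, adjusted p = 0.12) or with TPM (0.09, adjusted p = 0.193).

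The genotypes differed in normoxia at 3 of 34 tested complex I genes, 1 higher and 2 lower in the knockout. Over all tested genes 16.7% differed, 7.63% higher and 9.11% lower, so the count for complex I does not stand above that background. The core iron-sulfur subunit ndufs8a measured 110.2, 112.3 and 114.2 FPKM in WT and 87.9, 88.2 and 87.6 in the knockout, without overlap, a log2 difference of -0.35 ± 0.05 (adjusted p = 0.000993). In hypoxia its means were 91.1 ± 1.53 FPKM in WT and 89.7 ± 7.35 in the knockout, so that the groups no longer stood apart. The accessory flavoprotein subunit ndufv3 was higher in the knockout, at 39.1, 34.8 and 37.0 FPKM against 30.8, 28.0 and 27.3 (log2 difference 0.35 ± 0.07, adjusted p = 0.00661). The accessory subunit ndufa6 was lower, at 66.0 ± 3.65 against 80.8 ± 5.11 FPKM (-0.29 ± 0.09, adjusted p = 0.0418), a call that was lost under 11 of 21 alternatives, with adjusted p up to 0.147. Without any 1 of the 6 normoxia libraries it did not pass.

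Averaged over the 12 libraries, the highest level in complex I was that of ndufb1 (188 FPKM, against 176 for ndufb9, which was the higher of them in WT hypoxia), a small membrane-arm subunit whose annotated length is 177 bases. It measured 223, 203 and 192 FPKM in WT normoxia, 213, 135 and 86.0 in WT hypoxia, 207, 149 and 179 in knockout normoxia and 240, 213 and 219 in knockout hypoxia. The WT hypoxia libraries spread over more than the other 3 groups together, and the fall in WT did not pass (-0.60 ± 0.23, adjusted p = 0.0616) except per total reads (adjusted p = 0.0304) and with TPM (0.0338). It was higher in the knockout in hypoxia (0.72 ± 0.23, adjusted p = 0.0314), which did not hold without WT hypoxia replicate 3 (0.40, adjusted p = 0.0902) and was lost under 7 of 21 alternatives. Members shorter than 700 bases shared the spread: over 28 of them the median deviation from the group mean was 0.119, -0.023 and -0.110 in WT hypoxia replicates 1, 2 and 3, against 0.022, -0.002 and -0.020 over all 1703 tested genes of that length. Removing the trend with gene length from each library, an alternative chosen after the data were seen, left 3 risen and 53 fallen in WT, 17 and 9 in the knockout and 55 higher in the knockout in hypoxia. The shares of all genes called in that fit are not given here.

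Complex II, the succinate dehydrogenase, has no mitochondrially encoded subunit. The catalytic genes sdha, the flavoprotein, and sdhb, the iron-sulfur protein, did not pass in WT hypoxia, while both tested membrane anchors, which bind ubiquinone, fell. The difference between these roles was not tested. The annotated lengths are 2844 bases for sdha and 3272 for sdhb, against 1032 for sdhc and 1481 for sdhdb, so role and gene length cannot be told apart. In WT, sdha measured 74.6, 71.6 and 72.8 FPKM in normoxia and 74.6, 73.6 and 74.7 in hypoxia, with overlap, a log2 change of 0.02 with a 95% interval from -0.09 to 0.14. For sdhb the change was 0.02 with an interval from -0.12 to 0.15. Both turned to small negative values per total reads (-0.04 and -0.05) and with TPM (-0.01 for each). The anchor sdhc measured 74.3, 65.8 and 69.3 FPKM in WT normoxia and 54.0, 53.5 and 55.0 in WT hypoxia, against 65.8, 64.6 and 61.6 in knockout normoxia and 72.4, 71.7 and 66.5 in knockout hypoxia. It thus separated the WT groups downward (-0.36 ± 0.05, adjusted p = 0.000241), and its knockout hypoxia libraries were all above those of knockout normoxia in deposited FPKM without passing the test (0.13 ± 0.05, adjusted p = 0.0649). That change turned to -0.0035 per total reads and -0.03 with TPM, and passed without knockout hypoxia replicate 3 (0.17, adjusted p = 0.035). The other anchor, sdhdb, fell in WT (-0.43 ± 0.05, adjusted p = 3.08e-05), from 58.9 ± 2.07 to 43.6 ± 1.09 FPKM, and was at -0.10 ± 0.05 in the knockout (adjusted p = 0.125). It did fall there per total reads (-0.23, adjusted p = 0.000763), with TPM (-0.25, adjusted p = 0.00045) and without knockout hypoxia replicate 1 (-0.14, adjusted p = 0.0446).

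In hypoxia all 4 tested genes of complex II were higher in the knockout, where 17.0% of all tested genes were. The log2 differences were 0.37 ± 0.05 for sdhc, 0.24 ± 0.05 for sdhdb, 0.21 ± 0.05 for sdha and 0.18 ± 0.06 for sdhb. The sdhb call was lost under 7 of 21 alternatives, among them without knockout hypoxia replicate 1 (0.11, adjusted p = 0.148). Within the knockout sdha rose from 76.1 ± 4.13 to 86.4 ± 4.78 FPKM (0.18 ± 0.05, adjusted p = 0.0136), and this call did not hold per total reads (adjusted p = 0.472), with TPM (0.74), or without knockout normoxia replicate 1 (0.0683) or knockout hypoxia replicate 1 (0.0583).

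Complex III, the cytochrome bc1 complex, had 8 tested members, of which 6 fell in WT and 0 rose, and in the knockout 2 rose and 1 fell. Over all tested genes 19.2% fell and 16.8% rose in WT, and 21.8% rose and 22.2% fell in the knockout. The knockout counts of complex III are near or below that background. All 3 tested small subunits fell in WT (median -0.52) and were higher in the knockout in hypoxia, while of the 5 genes for the core proteins, cytochrome c1 and the Rieske protein 3 fell (median -0.18). The difference between these roles was not tested. The small subunit genes are annotated at 818 to 1185 bases and the other 5 at 1760 to 3965, so role and gene length cannot be told apart. The hinge protein uqcrh, which helps cytochrome c dock, measured 161, 147 and 155 FPKM in WT normoxia, 118, 117 and 116 in WT hypoxia, 164, 162 and 174 in knockout normoxia and 162, 155 and 152 in knockout hypoxia. In deposited FPKM the WT hypoxia libraries lay below all the others, which overlapped in part. It fell by 0.40 ± 0.05 on the log2 scale in WT (adjusted p = 4.36e-05) and was higher by 0.42 ± 0.05 in the knockout in hypoxia (adjusted p = 4.81e-05). In the knockout its change was -0.09 ± 0.05 (adjusted p = 0.152), but it fell there per total reads (-0.23, adjusted p = 0.00064) and with TPM (-0.25, adjusted p = 0.00034). The small subunit uqcrq measured 76.7, 74.0 and 71.2 FPKM in WT normoxia and 55.9, 48.1 and 35.5 in WT hypoxia (-0.68 ± 0.12, adjusted p = 0.000838), with 71.1 ± 5.5 in knockout hypoxia. The highest of the complex, the core gene uqcrc1, went from 207 ± 6.00 to 181 ± 8.25 FPKM in WT (-0.19 ± 0.05, adjusted p = 0.0147), a fall that was lost without WT normoxia replicate 1 (adjusted p = 0.0592) or WT hypoxia replicate 2 (0.0612). Its partner uqcrc2a rose in the knockout, from 77.4, 76.5 and 71.5 to 96.5, 92.2 and 89.0 FPKM (0.30 ± 0.06, adjusted p = 0.00171).

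Complex IV, the cytochrome c oxidase, is the end point of the chain, where electrons reach oxygen. Of its 14 members 6 fell and 2 rose in WT, 4 rose and 0 fell in the knockout, and 11 were higher in the knockout in hypoxia. Over all tested genes 19.2% fell and 16.8% rose in WT, 21.8% rose and 22.2% fell in the knockout, and in hypoxia 17.0% were higher in the knockout. The risen counts of complex IV in both genotypes are near that background. The COX7A subunit sits at the edge of the enzyme and is encoded by several paralogues. Copies that share a symbol in the table were told apart by chromosome and description: cox7a2a lies on chromosome 17 (49983157 to 49995366) and cox7a2b on chromosome 20 (49697463 to 49704915). In WT, cox7a2a measured 142, 143 and 136 FPKM in normoxia and 103, 94.9 and 94.2 in hypoxia, a fall of 0.53 ± 0.07 (adjusted p = 0.000149). In the same libraries cox7a2b measured 88.9, 74.1 and 96.0 FPKM in normoxia and 147, 111 and 98.4 in hypoxia, a rise of 0.45 ± 0.13 (adjusted p = 0.0197). The groups did not overlap for either gene, but the rise of cox7a2b rested on WT hypoxia replicate 1 (0.28, adjusted p = 0.0713 without it) and was also lost without WT normoxia replicate 2 (adjusted p = 0.0847) and with the compared groups alone (0.0504). In the knockout cox7a2b rose from 84.8, 69.2 and 74.0 to 151, 135 and 131 FPKM (0.86 ± 0.13, adjusted p = 0.000233), and cox7a2a went from 141 ± 11.5 to 127 ± 12.8 FPKM without passing (-0.16 ± 0.07, adjusted p = 0.104), a fall that did pass per total reads (-0.29, adjusted p = 0.0027) and with TPM (-0.32, adjusted p = 0.000987). As a share of the summed FPKM of cox7a1, cox7a2a and cox7a2b, cox7a2b made up 36.2% ± 3.67 in WT normoxia and 52.4% ± 3.78 in WT hypoxia, and 32.9% ± 1.37 and 49.6% ± 1.31 in the knockout. These shares depend on the annotated lengths, which are 252 bases for cox7a2b, 662 for cox7a2a and 952 for cox7a1. In WT hypoxia cox7a2b had 584, 456 and 399 reads, against 1070, 1020 and 1003 for cox7a2a. In WT normoxia the reads were 385, 309 and 408 against 1613, 1571 and 1521.

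The related gene cox7a2l, which in mammals joins complexes III and IV into supercomplexes, was at -0.06 ± 0.07 in WT (adjusted p = 0.538) and rose in the knockout from 104, 96.7 and 89.6 to 132, 117 and 116 FPKM (0.33 ± 0.07, adjusted p = 0.00211). The muscle paralogue cox7a1 was low, at 9.31 ± 1.68 FPKM in WT hypoxia and 14.9 ± 2.69 in knockout hypoxia, and higher in the knockout there (0.63 ± 0.14, adjusted p = 0.00376). The small subunit cox7c had a large fall in WT, from 340, 342 and 322 to 247, 202 and 140 FPKM (-0.80 ± 0.15, adjusted p = 0.00104), whereas its knockout means were 280 ± 23.7 and 269 ± 14.4 FPKM.

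Of the COX5 genes, which encode structural subunits around the catalytic core, the most abundant, cox5ba, did not pass in either genotype (-0.10 ± 0.06 in WT and 0.12 ± 0.06 in the knockout). It fell in WT per total reads (-0.17, adjusted p = 0.00725) and with TPM (-0.13, adjusted p = 0.0201), and its knockout value turned to -0.02 and -0.04. The minor copy cox5b2 (chromosome 13, 50375800 to 50378038) measured 8.36, 7.99 and 9.66 FPKM in WT normoxia, 11.2, 9.67 and 11.3 in WT hypoxia, 13.9, 11.9 and 13.8 in knockout normoxia and 18.3, 23.3 and 19.3 in knockout hypoxia. No 2 of the 4 groups overlapped, although the lowest WT hypoxia library and the highest WT normoxia library nearly met. It was higher in the knockout by 0.56 ± 0.10 in normoxia (adjusted p = 0.00246) and by 0.86 ± 0.10 in hypoxia (adjusted p = 5.01e-05), and rose in the knockout by 0.58 ± 0.10 (adjusted p = 0.00046). Its rise in WT (0.28 ± 0.10, adjusted p = 0.0422) was lost under 12 of 21 alternatives, with adjusted p up to 0.148. Of the summed COX5B level it made up 1.59% ± 0.144 in WT normoxia and 3.36% ± 0.585 in knockout hypoxia. The remaining copy, cox5bb, passed in no comparison. Of the COX5A genes cox5ab fell in WT (-0.27 ± 0.06, adjusted p = 0.00412) and was higher in the knockout in hypoxia (0.37 ± 0.06), and cox5aa passed in no comparison, although it fell in WT per total reads (-0.21, adjusted p = 0.00139) and with TPM (-0.17, adjusted p = 0.0026) and was higher in the knockout in hypoxia per total reads (0.13, adjusted p = 0.025).

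Of the COX8 paralogues, the minor cox8b measured 24.8, 24.3 and 20.3 FPKM in WT normoxia, 23.0, 22.6 and 23.5 in WT hypoxia, 23.5, 25.0 and 24.2 in knockout normoxia and 33.7, 34.5 and 33.4 in knockout hypoxia. Only the knockout hypoxia libraries stood apart, above all the others, a rise of 0.47 ± 0.07 (adjusted p = 0.00012). The abundant cox8a fell in WT from 492, 475 and 504 to 460, 429 and 383 FPKM (-0.21 ± 0.07, adjusted p = 0.0265), a call lost with the compared groups alone and without WT normoxia replicate 1 or 3 or WT hypoxia replicate 3 (adjusted p up to 0.0969).

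The NDUFA4 family takes its name from complex I, but NDUFA4 is now placed in complex IV. The gene ndufa4b (chromosome 12, 9880493 to 9884326) had the largest rise on the log2(FPKM + 1) scale among the members in both genotypes. It measured 73.3, 66.1 and 70.6 FPKM in WT normoxia, 126, 120 and 125 in WT hypoxia, 64.9, 62.6 and 70 in knockout normoxia and 140, 135 and 130 in knockout hypoxia. Hypoxia libraries lay far above normoxia libraries in each genotype, with rises of 0.81 ± 0.05 (adjusted p = 3.88e-07) and 1.03 ± 0.05 (adjusted p = 3.54e-08). Its paralogue ndufa4a, at a similar level in normoxia, went from 70.1 ± 2.46 to 64.1 ± 4.48 FPKM in WT without passing (adjusted p = 0.153) except per total reads (-0.20, adjusted p = 0.0112) and with TPM (-0.16, adjusted p = 0.0197), and from 68.6 ± 2.30 to 79.6 ± 6.80 in the knockout (0.21 ± 0.07, adjusted p = 0.0215). The knockout call was lost per total reads (0.07, adjusted p = 0.275), with TPM (0.05, adjusted p = 0.396) and without knockout hypoxia replicate 1 (0.14, adjusted p = 0.094) or knockout normoxia replicate 2 or 3. The share of ndufa4b in the sum of both genes went from 50% ± 1.2 to 65.9% ± 1.65 in WT and from 49.0% ± 2.04 to 63.0% ± 1.29 in the knockout.

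The gene ndufa4l2a (chromosome 9, 323460 to 327901) has a mammalian relative that is induced by hypoxia and known to restrain complex I. In WT its level was 2.2, 2.13 and 1.63 FPKM in normoxia and 2.56, 1.9 and 2.67 in hypoxia, with overlap (0.18 ± 0.11, adjusted p = 0.218). The knockout libraries gave 2.32, 2.29 and 2.29 FPKM in normoxia and 5.68, 5.05 and 4.81 in hypoxia, a rise of 0.90 ± 0.11 (adjusted p = 2.62e-05). The added 1 makes the log2 change smaller at such low FPKM. Knockout means went from 2.3 to 5.18 FPKM for ndufa4l2a and from 65.8 to 135 for ndufa4b, so their order in the knockout depends on that scale. The ndufa4l2a values rest on 32 to 50 reads in WT libraries and on 86 to 104 in knockout hypoxia. The knockout hypoxia libraries were all above every other library.

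**Figure D2:**
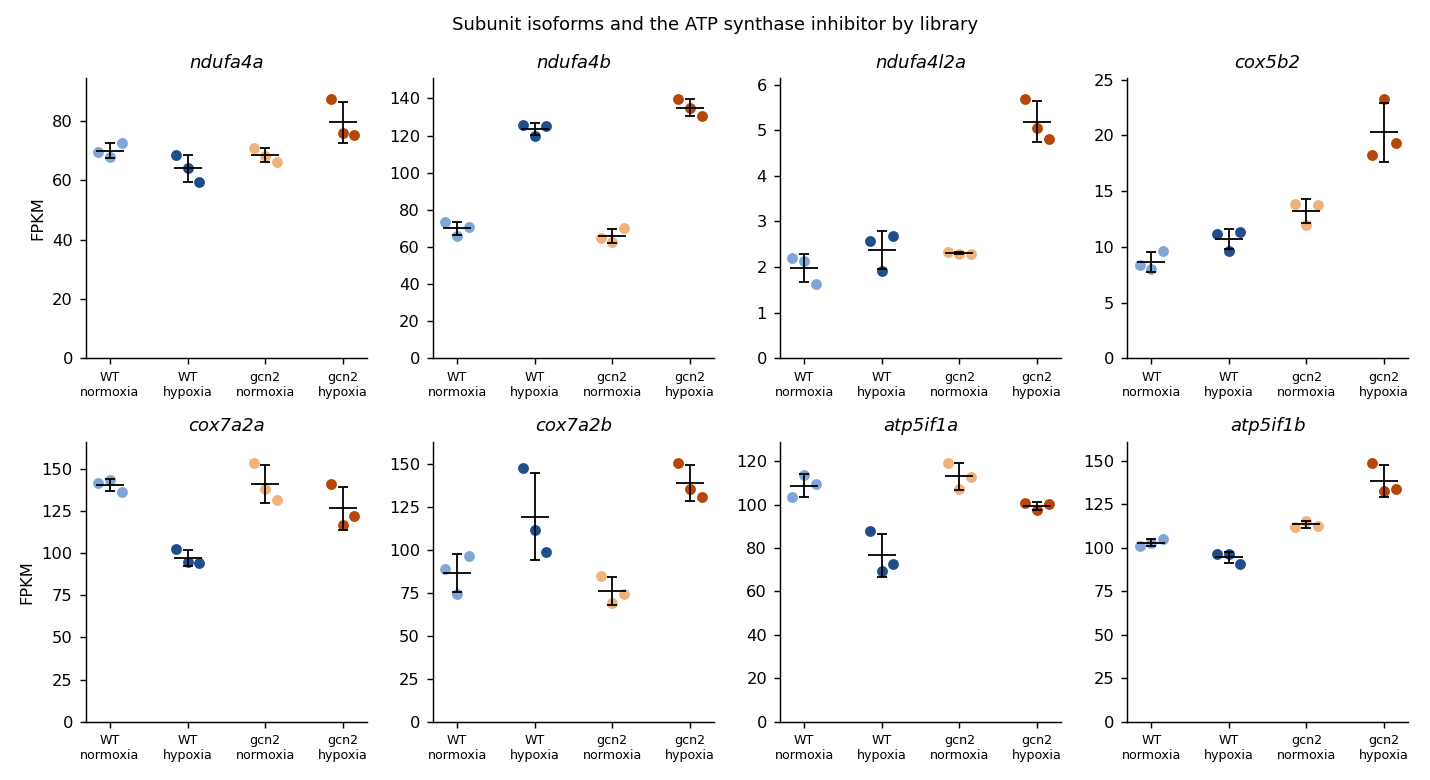
FPKM of 8 members in each library (points), with the mean (bar) and SD (whiskers) of the 3 libraries in a group. The hypoxia points of ndufa4b lie above the normoxia points in both genotypes, cox7a2a and cox7a2b move in opposite directions in WT, and ndufa4l2a is high in knockout hypoxia at 4.81 to 5.68 FPKM.

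Complex V, the ATP synthase, had 20 members, all tested. In WT 14 fell and 0 rose (median -0.33), in the knockout 2 rose and 2 fell (median -0.05), and 12 were higher in the knockout in hypoxia. Over all tested genes 19.2% fell and 16.8% rose in WT, 21.8% rose and 22.2% fell in the knockout, and in hypoxia 17.0% were higher in the knockout. The risen and fallen counts of complex V in the knockout do not stand above that background. Of the membrane part outside the c ring, which helps the enzyme form dimers, all 6 genes fell in WT (median -0.54), as did 2 of the 3 c ring genes (median -0.49) and 3 of the 5 genes of the F1 part, subunits alpha to epsilon (median -0.15). Differences between these roles were not tested. Those 6 membrane genes are annotated at 515 to 997 bases and the F1 genes at 1013 to 1954, so these roles and gene length cannot be told apart. The membrane gene atp5mea measured 48.5, 49.0 and 47.2 FPKM in WT normoxia and 35.0, 28.3 and 19.1 in WT hypoxia, a fall of 0.83 ± 0.15 (adjusted p = 0.00101), with 49.1 ± 4.19 and 41.8 ± 1.95 in the knockout. Falls of similar size in WT were -0.76 ± 0.14 for atp5f1e, the epsilon subunit of F1, and -0.74 ± 0.14 for atp5md. Both overlap a neighbouring gene on the other strand, over 676 bases for atp5f1e and 11 for atp5md. The catalytic beta subunit atp5f1b was the most abundant of all members, at 1119, 1099 and 1109 FPKM in WT normoxia and 989.6, 980.1 and 1023 in WT hypoxia, a fall of 0.15 ± 0.05 (adjusted p = 0.0179) without overlap. That call was lost with the compared groups alone (adjusted p = 0.0695) and without WT normoxia replicate 1 or 3 or WT hypoxia replicate 2.

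The c ring, which turns with the proton flow, is encoded by 3 paralogues, of which atp5mc3a and atp5mc1 fell in both genotypes. The levels of atp5mc3a were 91.1, 88.3 and 88.9 FPKM in WT normoxia, 66.5, 60.0 and 61.8 in WT hypoxia, 84.6, 86.4 and 84.8 in knockout normoxia and 68.8, 67.6 and 68.7 in knockout hypoxia. It fell in WT with a log2 change of -0.51 ± 0.05 (adjusted p = 3.88e-06), and its knockout value was -0.32 ± 0.05 (adjusted p = 0.000122). The changes of atp5mc1 were -0.49 ± 0.06 in WT and -0.22 ± 0.06 in the knockout, the latter lost without knockout hypoxia replicate 3 (adjusted p = 0.0518). The most abundant of the 3, atp5mc3b, did not pass in either genotype, except for a fall in WT per total reads (-0.20, adjusted p = 0.0126) and with TPM (-0.16, adjusted p = 0.0188), and its share of their sum went from 50.9% ± 1.28 to 57.3% ± 0.730 in WT and from 52.2% ± 0.708 to 58.8% ± 1.64 in the knockout.

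The ATP synthase inhibitor, which blocks ATP hydrolysis by the enzyme when the gradient fails, has a pair of genes. In zebrafish atp5if1a is also known to be needed for haem synthesis in red cells. In WT atp5if1a fell from 103, 114 and 109 to 87.9, 69.4 and 72.6 FPKM (-0.51 ± 0.08, adjusted p = 0.000266). Its knockout levels went from 119, 107 and 113 to 101, 97.4 and 100.3 without passing (-0.18 ± 0.08, adjusted p = 0.0722), although the groups did not overlap. This fall passed under 5 alternatives, among them per total reads (-0.32, adjusted p = 0.00229) and TPM (-0.34, adjusted p = 0.000904). The other gene, atp5if1b, measured 101, 103 and 105 FPKM in WT normoxia, 96.4, 96.3 and 90.9 in WT hypoxia, 112, 115 and 113 in knockout normoxia and 149, 133 and 133 in knockout hypoxia. The WT groups lay below both knockout groups. Its span overlaps, over 1470 bases, an unnamed gene on the other strand at 0.58 FPKM. It rose in the knockout (0.28 ± 0.05, adjusted p = 0.000653) and was higher there than in WT hypoxia by 0.54 ± 0.05 (adjusted p = 1.18e-05), while the change in WT was -0.12 ± 0.05 (adjusted p = 0.0827), which passed per total reads (-0.19, adjusted p = 0.00328), with TPM (-0.15, adjusted p = 0.012) and without knockout hypoxia replicate 1 (adjusted p = 0.0389). The share of atp5if1b in the sum of the pair went from 48.6% ± 0.975 to 55.3% ± 2.90 in WT and from 50.1% ± 1.77 to 58.1% ± 1.36 in the knockout.

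**Figure D3:**
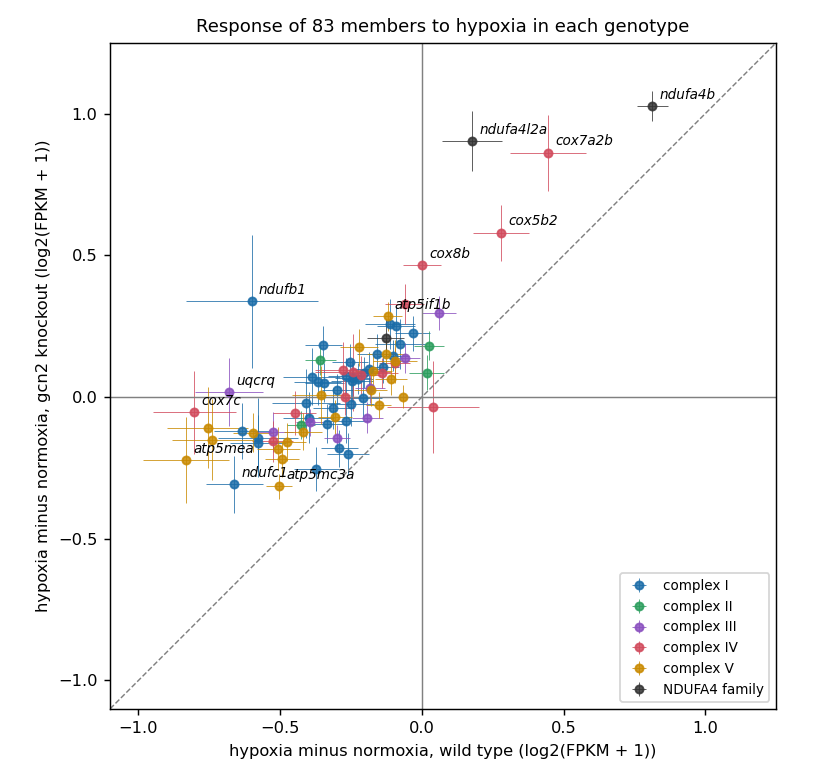
Change in hypoxia on the log2(FPKM + 1) scale in WT (horizontal) and in the knockout (vertical) for the 83 tested members, coloured by complex, with standard errors. The dashed line marks equal change. Most points lie left of 0 for WT and near 0 for the knockout, above the line, and ndufa4b lies at 0.81 and 1.03.

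The difference between the 2 responses was tested as the interaction of genotype and oxygen. It was positive for 82 of 83 members, the exception being cox5bb at -0.07 ± 0.23, and the share of all genes with a positive value is not given here. It passed for 26, all positive and 0 negative, against 9.25% of all genes (4.74% positive and 4.5% negative). At an unadjusted p below 0.05 the counts were 66 and 0, against 15% and 12.6% of all genes, and with voom 46 and 0, against 6.51% and 7.45%. By complex the calls were 11 in complex I, 2 in II, 3 in III, 5 in IV, 2 in the NDUFA4 family and 3 in V, and the median interaction was 0.31 over the members and 0.028 over all genes. The count depended on single libraries: it was 5 without WT normoxia replicate 1, 7 without WT normoxia replicate 3, 11 and 6 without knockout normoxia replicate 2 or 3, 14 without knockout normoxia replicate 1, 10 without WT hypoxia replicate 2, 17 without WT hypoxia replicate 3, 7 and 15 without knockout hypoxia replicate 1 or 2, and 57 without WT hypoxia replicate 1. It was also 10 with TPM, 12 with no filter on low values and 20 per total reads, where 1.98%, 2.17% and 3.21% of all genes had a positive call. The shares of all genes called in the fits that leave out a library are not given here, so whether the count moved with that background cannot be told. Over those 12 fits the median interaction of the members lay between 0.253 and 0.349, and that of all genes between 0.019 and 0.037. The median of the members was 0.18 with TPM and 0.241 per total reads, where the median of all genes was -0.074 and -0.026. The smallest adjusted p values were those of sdhc (0.49 ± 0.08, adjusted p = 0.00798), ndufs6 (0.53 ± 0.09, adjusted p = 0.0106) and atp5if1b (0.41 ± 0.07, adjusted p = 0.0124), each called under all 20 alternatives. Next came cox8b (0.47 ± 0.09), ndufa4l2a (0.73 ± 0.15) and atp5mf (0.47 ± 0.10), a membrane subunit of complex V, each lost under 1 alternative. The rise of ndufa4b differed between genotypes by 0.21 ± 0.08 without passing (adjusted p = 0.0964), and that of cox7a2b by 0.42 ± 0.19 (adjusted p = 0.176).

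**Figure D4:**
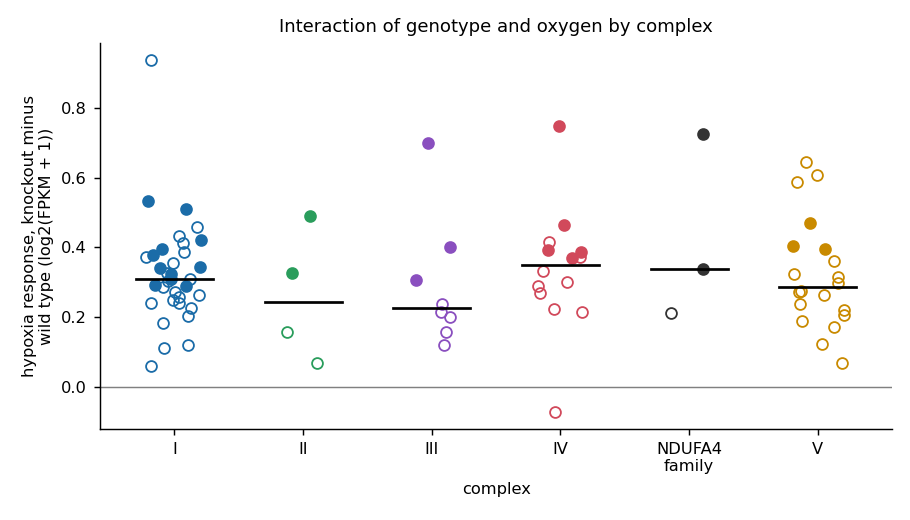
Interaction of genotype and oxygen (change in the knockout minus change in WT, log2(FPKM + 1)) for each tested member by complex. Filled points passed at an adjusted p below 0.05 and open points did not, and horizontal bars are medians. All points but cox5bb lie above 0.

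Summed over the members, each complex was lowest in WT hypoxia. Complex I summed to 3126, 3042 and 3097 FPKM in WT normoxia, 2789, 2453 and 2349 in WT hypoxia, 2974, 2960 and 2943 in knockout normoxia and 3276, 3019 and 2887 in knockout hypoxia. Complex V summed to 5414 to 5447 FPKM in WT normoxia, 4431 to 4843 in WT hypoxia, 5229 to 5333 in knockout normoxia and 5073 to 5576 in knockout hypoxia. In complexes I to V, the WT hypoxia libraries were all below the WT normoxia libraries and below the knockout hypoxia libraries. The share of all reads that fell on the members was 1.43% to 1.45% in WT normoxia, 1.45% to 1.48% in knockout normoxia, 1.18% to 1.22% in WT hypoxia and 1.33% to 1.41% in knockout hypoxia. By that share, which uses no scaling beyond total reads, both hypoxia groups lay below both normoxia groups, and the WT hypoxia group lay lowest.

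**Figure D5:**
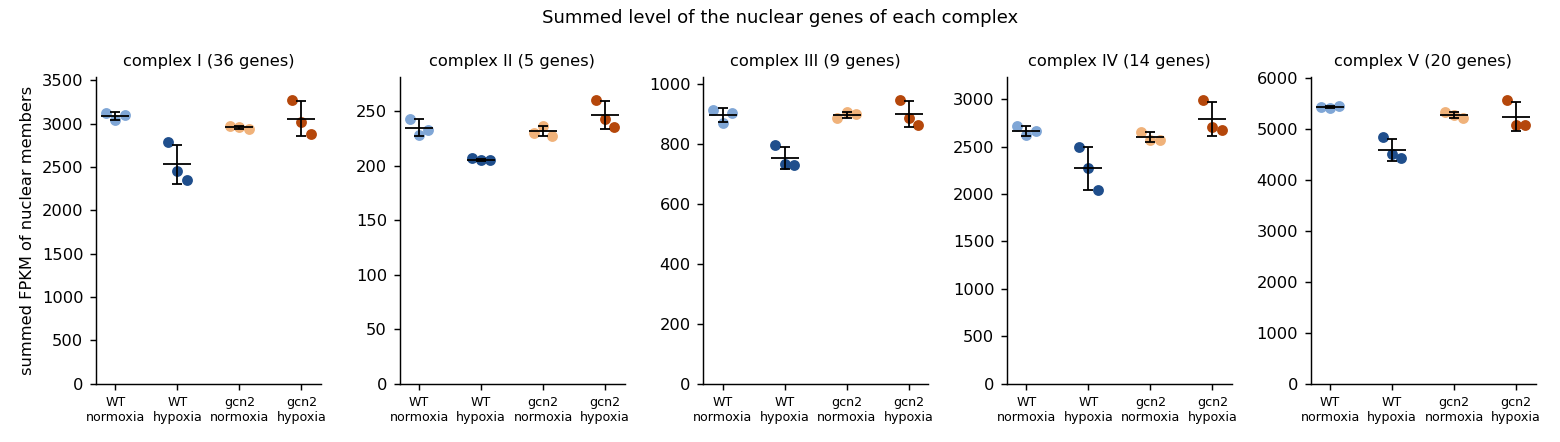
Summed FPKM of the nuclear members of complexes I to V in each library (points), with mean (bar) and SD (whiskers) of the 3 libraries of a group, on axes that start at 0. WT hypoxia is the lowest group in every panel, and knockout hypoxia overlaps knockout normoxia in complexes I, II, III and V.

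Of the 13 subunits encoded by the mitochondrial genome, 8 fell in each genotype, and 0 rose in WT and 2 in the knockout. Over all tested genes 19.2% fell and 16.8% rose in WT, and 22.2% fell and 21.8% rose in the knockout. The 13 subunits were not tested against the nuclear genes. The complex I subunits summed to 9680 ± 279 FPKM in WT normoxia and 6790 ± 417 in WT hypoxia, and to 10100 ± 437 and 7480 ± 95.4 in the knockout. Those of complex V summed to 5780 ± 227 and 3230 ± 134 FPKM in WT and to 6100 ± 411 and 3650 ± 112 in the knockout. The complex III subunit was at 3030 ± 158 and 2810 ± 92.2 FPKM in WT and at 3510 ± 151 and 3500 ± 66.2 in the knockout. Those of complex IV summed to 17500 ± 692 and 17700 ± 568 FPKM in WT and to 19700 ± 597 and 22400 ± 420 in the knockout. The subunit mt-nd1 had log2 changes of -0.66 ± 0.05 in WT and -0.62 ± 0.05 in the knockout, and mt-atp6 of -0.84 ± 0.06 and -0.74 ± 0.06. The cytochrome oxidase subunit mt-co1 rose in the knockout (0.31 ± 0.06) and was at 0.12 in WT (adjusted p = 0.0946). These sums and changes use the deposited scaling. The ratio of total reads to the FPKM divisor was 0.963 to 0.987 in WT normoxia and 1.003 to 1.053 in WT hypoxia. In the knockout it was 0.936 to 0.943 and 1.021 to 1.058. Per total reads the hypoxia levels are thus lower relative to normoxia. Values per total reads are not given here, so whether the knockout rises hold cannot be told. In hypoxia 6 of the 13 were higher in the knockout and 0 lower (median 0.17), where 17.0% of all genes were higher. In normoxia 1 was higher and 0 lower (median 0.15), where 7.63% were higher. With voom 8 were higher in hypoxia and 5 in normoxia, where 17.6% and 9.97% of all genes were. The mitochondrial genome took 3.48% to 3.67% of reads in WT normoxia and 3.97% to 4.18% in knockout normoxia. In hypoxia it took 3.0% to 3.08% in WT and 3.65% to 3.75% in the knockout. No interaction passed for the 13 with limma (3 positive and 0 negative at an unadjusted p below 0.05), and voom called 3, all positive. These genes and those named from the lists below were chosen after their values were seen. Poly(A) selection recovers mitochondrial transcripts by their short tails.

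Over all tested genes 16.8% rose and 19.2% fell in WT, and 21.8% rose and 22.2% fell in the knockout. Between genotypes in hypoxia 17.0% of all genes were higher in the knockout and 16.2% lower. The lists that follow were not tested against these shares. Of 47 tested assembly factors, 26 fell and 0 rose in WT (median -0.37), 14 fell and 1 rose in the knockout (median -0.13), and in hypoxia 15 were higher and 4 lower in the knockout. Of 12 genes for cytochrome c and for enzymes that feed electrons to the chain, 2 rose and 5 fell in WT, 5 rose and 4 fell in the knockout, and 9 were higher and 0 lower in the knockout in hypoxia. Cytochrome c itself, cycsb, went from 339 ± 17.6 to 239 ± 16.6 FPKM in WT (-0.50 ± 0.06, adjusted p = 4.27e-05) and from 308 ± 4.28 to 284 ± 15.4 in the knockout (-0.12 ± 0.06, adjusted p = 0.139), an interaction of 0.39 ± 0.09 (adjusted p = 0.0216). The coenzyme Q binding gene coq10b was at 16.7 ± 0.984 FPKM in WT hypoxia and 28.2 ± 1.55 in knockout hypoxia (interaction 0.74 ± 0.10, adjusted p = 0.00326). Of 13 regulators of mitochondrial transcription and biogenesis, 7 fell and 1 rose in WT, 6 fell and 1 rose in the knockout, and 0 differed between genotypes in hypoxia with limma (2 higher and 2 lower at an unadjusted p below 0.05), where voom called 1 higher. The mitochondrial transcription factor tfam fell in both, to 16.6 ± 1.42 FPKM in WT and 16.5 ± 0.871 in the knockout. Of 18 genes of the outer membrane and of protein import, 14 fell and 1 rose in WT, 12 fell and 4 rose in the knockout, and 5 were higher and 1 lower in the knockout in hypoxia.

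Markers of tissues moved with the groups as well, and their part in these results was not tested. The shares of all tested genes that rose and fell were 16.8% and 19.2% in WT, and 21.8% and 22.2% in the knockout. Between genotypes in hypoxia 17.0% of all genes were higher in the knockout and 16.2% lower. Muscle is rich in mitochondria, and of 8 tested skeletal muscle markers, from 16 names, 5 rose and 0 fell in WT and 8 rose in the knockout, with sums of 30300 to 31400 FPKM in WT normoxia, 36000 to 36500 in WT hypoxia, 27000 to 28700 in knockout normoxia and 34800 to 39200 in knockout hypoxia. Of 6 heart markers 3 rose in WT and 5 in the knockout, with sums of 59.7 to 65.6, 80.1 to 94.4, 59.3 to 64.3 and 87.6 to 97.8 FPKM in the same order. Of 10 tested photoreceptor markers 7 fell in WT, and 6 fell and 1 rose in the knockout, while opn1lw1 stayed near 0, with sums of 1170 to 1390, 476 to 840, 1530 to 1650 and 975 to 1030 FPKM. Of 9 exocrine pancreas markers 8 fell in WT and 7 in the knockout, with sums of 339 to 542, 116 to 216, 692 to 1010 and 309 to 383 FPKM, and 8 were higher and 0 lower in the knockout in hypoxia. All 13 tested proliferation markers fell in both genotypes, with sums of 549 to 597, 239 to 265, 458 to 492 and 185 to 202 FPKM, and 12 were lower in the knockout in hypoxia. Of 9 liver markers 4 rose and 2 fell in WT and 4 rose and 3 fell in the knockout, with sums of 3630 to 4620, 3530 to 4340, 3490 to 3710 and 3570 to 3770 FPKM. Between genotypes in hypoxia 6 photoreceptor markers were higher and 0 lower in the knockout (median 0.49), the same direction as the members. In that comparison 2 heart markers were higher and 0 lower, 4 liver markers were higher and 1 lower, and 1 muscle marker was higher and 2 lower. In normoxia 3 photoreceptor markers were already higher in the knockout and 0 lower (median 0.33). For pancreas markers 7 were higher and 1 lower there (median 0.99). The members stood at 2 higher and 2 lower in normoxia (median -0.04), against 7.63% and 9.11% of all genes. For heart, liver, muscle and proliferation markers these normoxia counts were 0 and 0, 2 and 2, 0 and 3, and 1 and 10.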

How the data were processed

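Polyadenylated RNA of whole zebrafish larvae was sequenced in 12 libraries, 3 in each of 4 groups taken from the sample titles, and the series' design states biological replicates. Per the submitters' processing notes, the tools were fastp, HISAT2 2.2.1 and featureCounts 2.0.6, and the genome build was GRCz11. Values are the deposited FPKM; whether counting used strand is not given in the sources used here. The product of FPKM and gene length lay within 0.05 of a whole step for 100% of values, which gave the reads. The divisor was proportional to total reads times a median-ratio factor in each library, a property found in the values and not stated by the authors.

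Testing took genes that reached 1 FPKM in 3 or more libraries, with limma 3.58.1 (R 4.3.3) with a trend, on log2(FPKM + 1), in 1 fit over all 12 libraries, and adjusted by Benjamini-Hochberg over all genes of each comparison with a threshold of 0.05. Python 3.11.15, pandas 2.3.3, numpy 2.4.6 and matplotlib 3.10.9 made tables and figures.

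The members and gene lists were chosen with earlier results of these data known. Named members were, in each comparison, the 4 largest rises and 6 largest falls past the test (with at least 2 FPKM in the higher group), the smallest p in each complex, the most abundant member of each complex and all SDH, NDUFA4, ATP5IF1, COX5, COX7A, COX8 and ATP5MC genes, and in the interaction the 6 smallest adjusted p; coordinates are GRCz11 from the table. List genes were matched by name in the table, and 49 of 53 assembly factors were found; cyt1, a keratin in zebrafish, was left out of the lists. Copies that share a symbol were named from chromosome and description. Alternatives were a pseudocount of 0.1, no filter, TPM scaling, median ratio scaling, voom on the recovered reads, a block for replicate number, a fit of the compared groups alone and each library left out; scaling by total reads and removal of the trend with gene length were added after the data were seen. Sequences were not used here.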

Additional observations from a re-analysis of the deposited data

Results flagged for a closer look

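The response to hypoxia differed between the genotypes, by the test of the interaction, for 26 of 83 members, all positive, and the cause was not tested. Over all tested genes 9.25% were called, 4.74% positive and 4.5% negative. Of the 26, the members named by rule had interactions of 0.49 for sdhc, 0.53 for ndufs6, 0.41 for atp5if1b, 0.47 for cox8b, 0.73 for ndufa4l2a, 0.47 for atp5mf, 0.33 for sdhdb, 0.39 for cox7a2l, 0.34 for ndufa4a and 0.37 for cox7a2a on the log2(FPKM + 1) scale, all higher in the knockout. The last 3 were called least firmly: cox7a2l was lost under 8 of 20 alternatives, ndufa4a under 11 and cox7a2a under 13. The count of 26 became 5 to 57 when each library was left out and 10 with TPM. With 3 libraries a group, no single library was tested as an outlier.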

How the results depend on the processing

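With TPM scaling the knockout's hypoxia counts were 8 risen and 33 fallen and the interaction count 10. Per total reads they were 8 and 26, and 20, and the shares of all genes for both are given above. In normoxia TPM gave 7 higher and 1 lower, against 9.96% and 5.82% of all genes. Per total reads 5 were higher and 1 lower, against 9.98% and 6.69%. These normoxia counts do not stand above that background. With the compared groups alone, 5 were higher and 6 lower in normoxia (9.86% and 11.7% of all genes) and 36 higher in hypoxia. With no filter, 2 were higher and 1 lower in normoxia, against 4.86% and 5.96% of all genes, and 12 interactions passed, and with voom 46. Leaving out each library gave 1 to 3 risen and 41 to 59 fallen in WT, 10 to 19 and 1 to 12 in the knockout, 2 to 3 higher and 1 to 4 lower in normoxia, 37 to 71 and 0 to 0 in hypoxia, and 5 to 57 interactions. For these fits the shares of all genes called are not given here.

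Between 28 and 33 members were named in each comparison, and the tally that follows covers 96 of the results and not all of them. Of 2002 alternatives over these 96 results, 1836 kept direction and call, 131 lost the call, 22 gained it and 13 reversed, 0 of them called as reported. Of the 1836, 96 came from median ratio scaling, which equals the deposited scaling and could not differ. Leaving out a library outside a pairwise comparison can move its adjusted p but not its change. The tally therefore counts alternatives that could change little or nothing. Reversed were sdha in WT (-0.01 with TPM, -0.04 per total reads), sdhb in WT (-0.01 with TPM, -0.05 per total reads, and -0.0026 to 0.03 when leaving out each library), sdhb in the knockout (-0.07 and -0.05), the sdhb interaction (-0.06 with TPM, and -0.01 to 0.11 when leaving out each library), sdhc in the knockout (-0.03 and -0.0035) and ndufa4a between genotypes in normoxia (0.04 and 0.02). Changes outside these 96 results are given above with their genes. Among them, the knockout rise of ndufs6 was lost and the knockout value of cox5ba reversed, each per total reads and with TPM. The cause was not tested.

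The replicate numbers were not taken as pairs: over 18 same-numbered pairs the correlation of residuals had a median of 0.015 and 1 was above 0.1. With the replicate block the counts were 2 risen and 57 fallen in WT, 16 and 8 in the knockout, 2 higher and 3 lower in normoxia, 65 higher in hypoxia and 33 interactions. The shares of all genes called with the block are not given here, so whether these counts moved with that background cannot be told. Median ratio scaling equals the deposited scaling. Depth limits ndufa4l2a, at 32 to 104 reads a library.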
